A study of Brassica napus with 18 samples.

Results

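The comparison described here set bnagrp3, a mutant line of rapeseed (Brassica napus), against wild type (WT) without added salt. It holds 6 of the 18 libraries of the series, chosen by their column names in the deposited table: 3 of bnagrp3 mock and 3 of WT mock. Both groups were aerial parts, labelled leaf, of plants kept for 3 weeks in Hoagland's solution, and poly(A) RNA was sequenced. The other libraries are the same genotypes after 4 h or 8 h in 200 mM NaCl, 3 in each group. The mutant is a single line, bngrp3#2. The labels give neither the copies of GRP3 that carry a mutation nor the background in which the line was made, so an effect of GRP3 and any other genetic difference between this line and WT cannot be told apart. Nor do they say whether a group's 3 libraries are different plants. The p-values below therefore weigh library-to-library variation alone, and part of it may be technical. Levels are in TPM, a share of all transcripts that is corrected for gene length. Differences are bnagrp3 minus WT on the log2(TPM + 1) scale, which understates changes of weakly expressed genes. A gene was called at an adjusted p under 0.05, from limma with Benjamini-Hochberg adjustment over all genes tested.

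GRP3 encodes a small secreted glycine-rich protein of the cell wall. In Arabidopsis it binds the outer domain of wall-associated kinase 1 (WAK1), a receptor that spans the plasma membrane, holds on to pectin and is tied to cell expansion and to defence. Rapeseed is an allotetraploid that carries an A genome and a C genome, so that most genes exist as several close copies, and a change in 1 copy can be met or hidden by its partners. Identifiers name the chromosome of a gene by genome and number, such as A09 or C03, and gene models whose identifier names none are called unplaced.

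The 6 libraries separated by genotype. Pearson correlations of log2(TPM + 1) across genes were 0.957 to 0.958 within bnagrp3, 0.941 to 0.955 within WT and 0.878 to 0.894 between the genotypes. Leaf mesophyll markers summed to 71635 to 74362 TPM in bnagrp3 and 64460 to 66014 TPM in WT, and of their 47 tested members 13 were called higher and 12 lower. Some defining markers of other tissues were low: CLV3 and WUS of the shoot meristem, IRT1 of the root, GL2 of trichomes, SEP3 of flowers and CRU1 of seeds were each below 0.5 TPM in all 6 libraries. Other members of their lists were expressed, so the low markers do not show that a tissue was absent. Shoot meristem markers summed to 18.45 to 19.56 TPM in bnagrp3 and 18.01 to 19.09 TPM in WT. Trichome markers summed to 17.18 to 19.04 TPM in bnagrp3 and 16.87 to 21.45 TPM in WT, and flower markers to 5.87 to 8.38 TPM in bnagrp3 and 4.68 to 6.11 TPM in WT. Markers of several other cell types summed without overlap between the genotypes: phloem at 316 to 337 TPM in bnagrp3 and 351 to 372 TPM in WT, guard cell at 62.9 to 72.5 TPM in bnagrp3 and 73.7 to 75.5 TPM in WT, and seed at 11.3 to 14.3 TPM in bnagrp3 and 22.8 to 30.1 TPM in WT. Dividing-cell markers were at 50.6 to 53.2 TPM in bnagrp3 and 53.8 to 60.2 TPM in WT, and senescing-leaf markers at 4.18 to 5.54 TPM in bnagrp3 and 6.26 to 8.97 TPM in WT, also without overlap. Root markers overlapped, at 71.6 to 183 TPM in bnagrp3 and 53.9 to 108 TPM in WT. Xylem markers, at 242.3 to 290.5 TPM in bnagrp3 and 248.8 to 272.7 TPM in WT, overlapped too. So did epidermis and wax markers, at 716.8 to 738.8 TPM in bnagrp3 and 729.3 to 928.1 TPM in WT. Called members were 4 lower and 2 higher of 26 tested for phloem, 1 lower of 16 for guard cell and 3 lower of 10 for seed. For dividing cells 2 of 10 were lower, and for senescing leaf 1 of 9. Among all genes tested, 12.4% were called lower, and 38.2% did not overlap between the genotypes. The part of these cell types in the results was not tested. After the values were seen, 326 genes were picked that had at least 5 TPM in all 9 bnagrp3 libraries of the series but no more than 0.2 TPM in 2 or more of the 9 WT libraries. In WT mock libraries 1, 2 and 3 their median level was 0.231, 0.254 and 0.214 of the mean in bnagrp3 mock. Their part in the results was not tested.

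GRP3 transcripts were less abundant in bnagrp3 mock leaves, but they were not gone. Together the 13 GRP3 genes gave 2217, 2329 and 1761 TPM in the bnagrp3 libraries, against 3590, 3566 and 3838 TPM in the WT libraries, with no overlap. Of the 11 that could be tested, 6 were lower, 1 was higher and 4 were not called, where 12.4% of all genes tested were called lower and 9.1% higher. Without WT mock library 2, none was called higher. In bulk tissue, fewer cells of a type and less RNA per cell cannot be told apart, here and below.

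The largest fall was that of an unplaced GRP3 model. It was listed at 0, 0 and 0.5 TPM in bnagrp3, against 376, 526 and 478 TPM in WT, a log2 difference of -8.64 ± 0.38 (SE; limma adjusted p = 1e-09). BnaA07G0050000ZS had 1.91, 0.88 and 1.63 TPM in bnagrp3 and 19.2, 24.4 and 16.9 TPM in WT, a log2 difference of -3.11 ± 0.23. Both genes were close to absent in every bnagrp3 mock library and present in every WT mock library. On chromosome C07, BnaC07G0084100ZS was at 0.25, 0.17 and 0.18 TPM in bnagrp3, against 4.73, 6.26 and 6.48 TPM in WT (log2 difference -2.50). Its neighbour BnaC07G0084200ZS was at 4.16, 1.86 and 2.7 TPM in bnagrp3, against 9.44, 13.0 and 14.7 TPM in WT (log2 difference -1.80).

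Most of the remaining GRP3 transcript came from a pair of abundant genes that fell only partly. BnaA03G0387800ZS had 872, 932 and 684 TPM in bnagrp3 and 1283, 1306 and 1401 TPM in WT, a log2 difference of -0.69 ± 0.15 (limma adjusted p = 0.00355). BnaC03G0480300ZS had 1313, 1370 and 1046 TPM in bnagrp3 and 1879, 1676 and 1898 TPM in WT, a log2 difference of -0.56 ± 0.14 (limma adjusted p = 0.0114). Groups did not overlap for either gene, but the C03 gene lost its call without bnagrp3 mock library 3 (log2 difference -0.44, limma adjusted p = 0.0593). The gene that rose was Bnascaffold0025G0035900ZS, with 7.67, 6.13 and 7.07 TPM in bnagrp3 and 3.21, 0.9 and 2.61 TPM in WT (log2 difference 1.37, limma adjusted p = 0.0149). Without WT mock library 2 its log2 difference was 1.02 and its limma adjusted p 0.0666. BnaA03G0387900ZS, BnaC03G0480200ZS, BnaC03G0480400ZS and BnaC07G0083900ZS were not called, and BnaA04G0199600ZS and BnaC04G0505400ZS were listed at 0 in all 6 mock libraries.

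**Figure D1:**
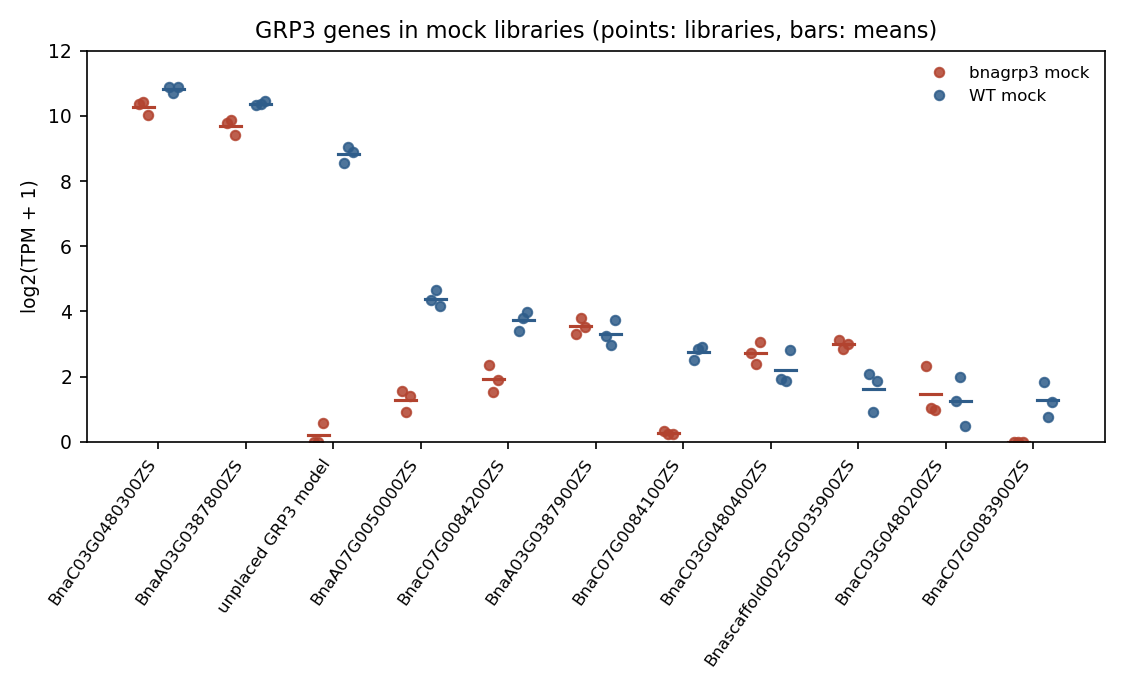
Level of each tested GRP3 gene as log2(TPM + 1), with 1 point per library and a bar at the mean of 3 libraries, for bnagrp3 mock (left of each pair) and WT mock (right). The abundant A03 and C03 genes sit slightly lower in bnagrp3, whereas the unplaced model lies near 0 in bnagrp3 and between 376 and 526 TPM in WT.

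The deficit was also present in salt. GRP3 genes summed to 3535 to 3733 TPM in bnagrp3 and 4910 to 6324 TPM in WT after 4 h in NaCl, and to 4725 to 5121 TPM in bnagrp3 and 8681 to 9382 TPM in WT after 8 h. Among the 11 tested GRP3 genes, the difference between the genotypes changed between mock and NaCl (limma interaction, adjusted p = 0.00686) for Bnascaffold0025G0035900ZS alone, whose log2 difference was 1.37 in mock, 3.11 at 4 h and 4.75 at 8 h.

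Beyond GRP3, differences between the genotypes were widespread. Of 57923 genes tested, 12465 were called (21.5%), 5272 of them higher in bnagrp3 (9.1%) and 7193 lower (12.4%). Most differences were small: 1468 genes were higher (2.53%) and 2635 lower (4.55%) by at least 1 log2 unit. Very large differences were mostly losses, since 42 genes were higher and 311 lower by at least 3 log2 units. The median log2 difference of all genes was -0.005. TPM has a fixed total per library, so this median says nothing of the amount of RNA. The genotypes' libraries did not overlap for 38.2% of all genes tested.

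**Figure D2:**
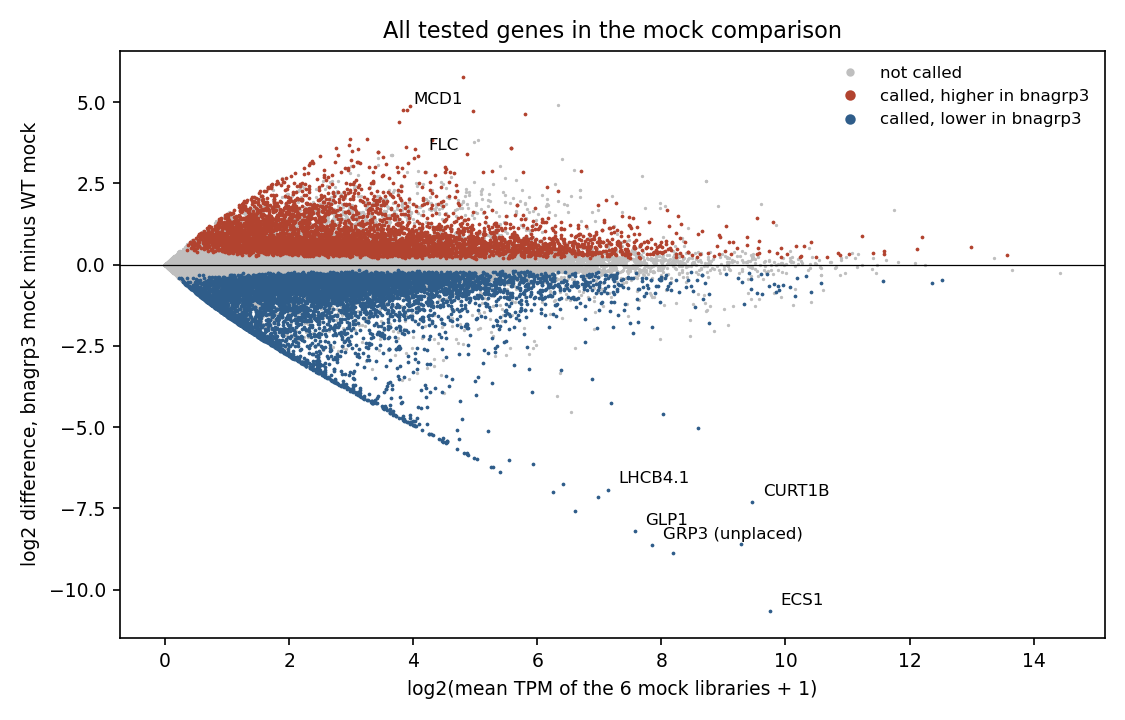
Log2 difference, bnagrp3 mock minus WT mock, against the log2 mean TPM of the 6 mock libraries for the 57923 tested genes, coloured by the limma call. The called genes reach further down than up, along the edge where a gene is listed at 0 in bnagrp3, and ECS1 and a GRP3 gene are among the lowest points.

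Presence and absence showed the same asymmetry. Altogether 242 genes had at least 5 TPM in all 3 WT mock libraries and at most 0.2 TPM in all 3 bnagrp3 mock libraries, whereas 13 genes showed the reverse. Their median level in the genotype that had them was 12.1 TPM for the 242 and 11.5 TPM for the 13. In the 6 bnagrp3 libraries with NaCl, 196 of the 242 were again at most 0.2 TPM throughout, and 181 of these were at least 1 TPM in all 6 WT libraries with NaCl. Of the 242, 84 were unplaced gene models, of which 6436 were tested. Among the chromosomes C03 held 31 and A09 held 14, more than any other. Both also had the most tested genes, 4256 and 3648, and A10 held 8 among 1813 tested. For the 326 genes picked above, the median level in WT mock was 0.214 to 0.254 of the bnagrp3 mock mean. Such a level can keep a gene above the 0.2 TPM limit. Of the 326, 130 were called higher, 0 lower and 196 not called (median log2 difference 1.87), though the rule that picked them favours rises. The bearing of these genes on this asymmetry, and on that of the very large differences, was not tested.

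Many changes of a single copy were not shared by the sum over all copies. Where TPM was summed over all genes with the same Swiss-Prot entry, 3025 of 13873 entries were called (21.8%), 1306 higher (9.41%) and 1719 lower (12.4%), but by at least 1 log2 unit there were 98 higher and 212 lower. Of 1765 genes with an entry that were called at least 1 log2 unit lower, the sum was also called lower for 861 (48.8%), not called for 819 and called higher for 85. Of the 912 called at least 1 log2 unit higher, the sum was called higher for 446 (48.9%), not called for 429 and called lower for 37. How reads shared by near-identical copies were divided is not given here. A total of 526 genes with a mean of at least 1 TPM held the same 18 values as another gene, so the level of a single copy is uncertain where copies are alike. Sums over copies are therefore given beside single genes below.

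Flowering locus C (FLC), the repressor of flowering whose transcript falls in the cold, had copies that moved in opposite directions. Of 10 tested FLC genes, 5 were lower, 2 higher and 3 not called. BnaA10G0244800ZS had 1.15, 1.09 and 0.81 TPM in bnagrp3 and 13.3, 11.1 and 11.2 TPM in WT (log2 difference -2.67). On C09 the direction was opposite: BnaC09G0557000ZS had 31.5, 27.9 and 27.6 TPM in bnagrp3 and 6.23, 0.73 and 1.06 TPM in WT (log2 difference 3.34), and BnaC09G0556100ZS had 9.83, 8.61 and 8.74 TPM in bnagrp3 and 2.12, 0 and 0.06 TPM in WT. The sum of all FLC genes was 120, 116 and 107 TPM in bnagrp3 and 112, 119 and 123 TPM in WT, overlapping groups with a log2 difference of -0.04 (limma adjusted p = 0.607).

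Some lower genes lay close together on the chromosomes. After the values were seen, stretches of neighbouring genes were searched for. A stretch was any run of 30 tested genes of which at least 15 were called at least 1 log2 unit lower. In the 3 stretches found, 162 of 235 tested genes (68.9%) were that much lower, against 1773 of the 50678 placed genes outside them (3.5%). The rule itself sets these shares apart, so they are no test of uneven spread. The stretch at the start of C03, from BnaC03G0001200ZS to BnaC03G0030100ZS, held 155 tested genes, of which 118 were lower, 5 higher and 32 not called, with a median log2 difference of -1.35. A second, from BnaA09G0692200ZS to BnaA09G0698500ZS, held 49, of which 44 were lower and 1 higher (median -1.65). The last ran from BnaA10G0296600ZS to the final tested gene of A10, BnaA10G0301900ZS, with 27 of 31 lower and 1 higher (median -1.75). These genes were lower in salt as well: at 4 h 113 of the 155, 44 of the 49 and 26 of the 31 were called lower, and at 8 h 121, 40 and 26, where 13.7% and 12% of all genes were called lower at 4 h and 8 h. The same 3 chromosomes were found without any 1 of the 6 mock libraries.

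**Figure D3:**
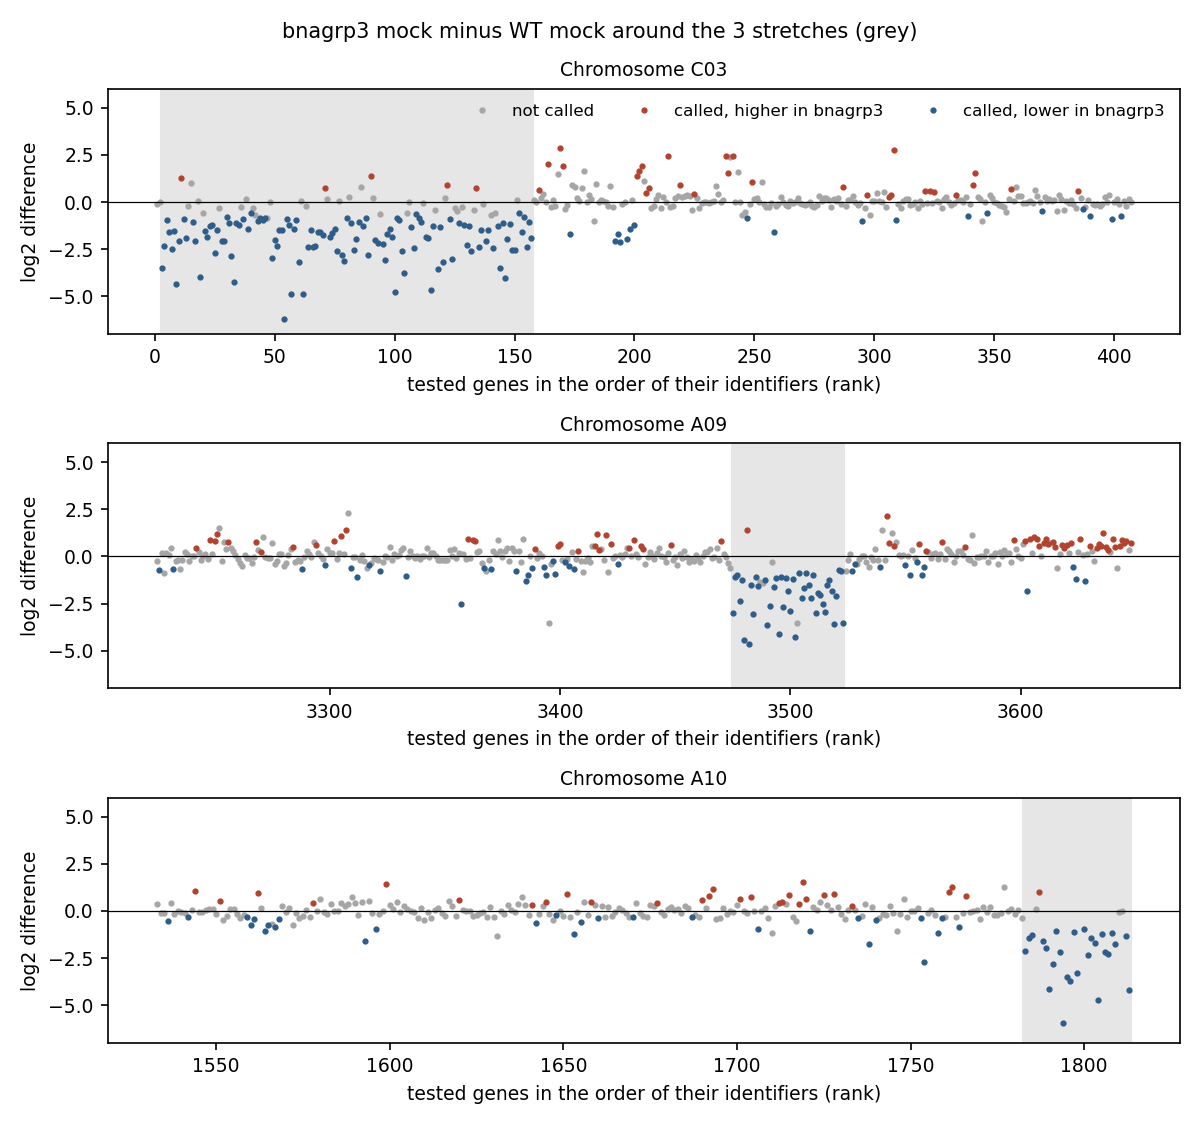
Log2 difference, bnagrp3 mock minus WT mock, of tested genes in the order of their identifiers around the 3 stretches (grey), with each gene coloured by its limma call. Within the grey areas the median gene lies between -1.75 and -1.35, and outside them most genes lie near 0, except for a run of higher genes at the end of A09.

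Their partner copies were called higher more often than lower, where 9.1% of all genes were called higher and 12.4% lower. For the C03 stretch, 29 of 81 tested genes on A03 with the same Swiss-Prot entry were higher and 2 lower (median log2 difference 0.38). For the A10 stretch, 17 of 24 copies on C09 were higher and 1 lower (median 0.59). For the A09 stretch the partners lay on A09 itself, mostly further along the same chromosome from BnaA09G0713600ZS to BnaA09G0721400ZS in the same order, and 20 of 37 were higher and 4 lower (median 0.54). Of the sums over copies, 28 of 82 were lower and 10 higher for C03, 4 of 23 lower and 2 higher for A10, and 10 of 32 lower and 3 higher for A09, against 12.4% lower and 9.41% higher among all sums.

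In the named pairs that follow, the copy in the stretch was lower and its partner higher. Other pairs differed: for ATX1 the C03 copy and its A03 partner were both lower, with log2 differences of -4.77 and -4.22. CER1, an enzyme that makes the alkanes of leaf wax, had its A09 copy BnaA09G0698500ZS at 19.6, 18.4 and 15.02 TPM in bnagrp3 and 221, 172 and 257 TPM in WT. Its second A09 copy, BnaA09G0721400ZS, had 399, 423 and 415 TPM in bnagrp3 and 273, 219 and 275 TPM in WT. Summed CER1 was 418, 442 and 430 TPM in bnagrp3 and 495, 393 and 532 TPM in WT, which was not called (log2 difference -0.13, limma adjusted p = 0.421). KCS1, which elongates very-long-chain fatty acids, behaved alike: BnaA09G0693100ZS was listed at 0 in all bnagrp3 libraries and at 24.4, 21.3 and 28.0 TPM in WT, while BnaA09G0714600ZS had 75.6, 78.4 and 77.8 TPM in bnagrp3 and 39.9, 37.6 and 41.0 TPM in WT. For NAS1, a nicotianamine synthase of metal transport, the C03 copy BnaC03G0022200ZS was listed at 0 in bnagrp3 and at 23.6, 26.1 and 23.3 TPM in WT, and the A03 copy BnaA03G0017500ZS had 55.5, 60.1 and 62.4 TPM in bnagrp3 and 47.2, 46.5 and 44.1 TPM in WT. The A03 call was lost without bnagrp3 mock library 3 (limma adjusted p = 0.0506). SQD2, a sulfolipid synthase of the thylakoid, had its C03 copy listed at 0 in bnagrp3 and at 14.3 to 20.3 TPM in WT, and its A03 copy at 75.4 to 77.9 TPM in bnagrp3 and 38.0 to 48.8 TPM in WT. These partners were chosen after their values were seen.

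The largest loss of all named genes was ECS1, a small protein. An unplaced model was at 0, 0 and 0.13 TPM in bnagrp3, against 1297, 1887 and 1978 TPM in WT, and BnaC06G0340100ZS at 1.29, 2.84 and 2.54 TPM, against 896, 1392 and 1425 TPM. The remaining copy, BnaC03G0469200ZS, had 103, 119 and 86.2 TPM in bnagrp3 and 115, 54.5 and 83.4 TPM in WT. The sum over copies was thus 104, 122 and 88.9 TPM in bnagrp3 and 2308, 3333 and 3486 TPM in WT, a log2 difference of -4.84 ± 0.31 (limma adjusted p = 1.11e-07).

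Large losses of single copies were also found for other proteins. CURT1B, which bends thylakoid membranes, lost its A04 copy: BnaA04G0295500ZS had 8.48, 6.69 and 8.76 TPM in bnagrp3 and 1445, 1378 and 1399 TPM in WT. Its 3 other copies were not called, so that summed CURT1B was 740, 755 and 775 TPM in bnagrp3 and 2185, 2219 and 2189 TPM in WT (log2 difference -1.54, limma adjusted p = 6.37e-05). Germin-like protein 1, an extracellular protein, lost BnaC02G0102600ZS, with 1.07, 0 and 0 TPM in bnagrp3 and 310, 405 and 416 TPM in WT. Its sum did not follow, at 770, 867 and 623 TPM in bnagrp3 and 544, 726 and 695 TPM in WT (log2 difference 0.20, limma adjusted p = 0.363). Of its other copies, BnaA10G0172500ZS and BnaC09G0459300ZS were higher by 1.31 and 0.72, and the second call was lost in a fit of the 6 mock libraries alone (limma adjusted p = 0.0838). BnaA02G0086600ZS was not called, at 353, 411 and 310 TPM in bnagrp3 and 50.95, 51.8 and 54.8 TPM in WT (log2 difference 2.74, limma adjusted p = 0.0564), and was called in a fit of the 6 mock libraries alone (limma adjusted p = 0.000152), with median-of-ratios rescaling and with a 5 TPM filter (both 0.0483). BnaC02G0103000ZS was lower by 1.47 log2 units. The bifunctional nuclease gene BBD1 (BnaC02G0286800ZS) was listed at 0 in bnagrp3 and at 64.7, 46.5 and 60.3 TPM in WT, and no other copy of it was expressed in mock, so its sum was the same. A type 2 metallothionein gene, BnaC02G0005000ZS, was listed at 0 in bnagrp3 and at 187, 154 and 238 TPM in WT. The others among the 15 largest falls of genes with a named product were a second metallothionein gene, LHCB4.1, RPS23B, RPP1B, METTL7A, AGP16, At5g02240, an unplaced defensin gene and the unplaced GRP3 model. BnaA10G0298800ZS, which has no named product and lies in the A10 stretch, averaged 0.273 TPM in bnagrp3 and 579.2 TPM in WT (log2 difference -8.89, limma adjusted p = 9.39e-12).

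The largest gains were of moderate abundance. MCD1, which places the division site of chloroplasts, gained BnaA10G0109000ZS, with 28.2, 27.5 and 24.0 TPM in bnagrp3 and 0, 0 and 0.06 TPM in WT. Its 3 other tested copies were not called, and the sum rose to 71.1, 72.4 and 69.1 TPM in bnagrp3, against 43.2, 43.0 and 40.5 TPM in WT (log2 difference 0.73, limma adjusted p = 0.00116). HEMB1, an early enzyme of chlorophyll synthesis, had BnaA07G0314700ZS at 12.9, 15.1 and 16.6 TPM in bnagrp3 and 0, 1.39 and 0 TPM in WT. COPT5, a copper transporter, had BnaC02G0103300ZS at 96.7, 93.9 and 87.4 TPM in bnagrp3 and 25.8, 7.9 and 7.8 TPM in WT. LOX2, the lipoxygenase that starts jasmonate synthesis in chloroplasts, had BnaC06G0315600ZS at 41.1, 38.4 and 36.6 TPM in bnagrp3 and 8.71, 0.91 and 6.2 TPM in WT. WT libraries were uneven for several of these genes, and 2 of the 15, the ribosomal genes PSRP6 (BnaC02G0084300ZS) and RPL31A (BnaC07G0022400ZS), lost their call without WT mock library 2 (limma adjusted p = 0.0541 and 0.0645). The others were MAP2B, RPP8L2, RPS8A, RBX1A, KTI2, RDL5, FLC, At1g28150 and At1g29470.

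Gene lists were read against the 21.5% of all genes that were called. The shares called ran from 11.4% for WRKY factors to 57.5% for the circadian clock among lists of at least 20 tested genes.

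**Figure D4:**
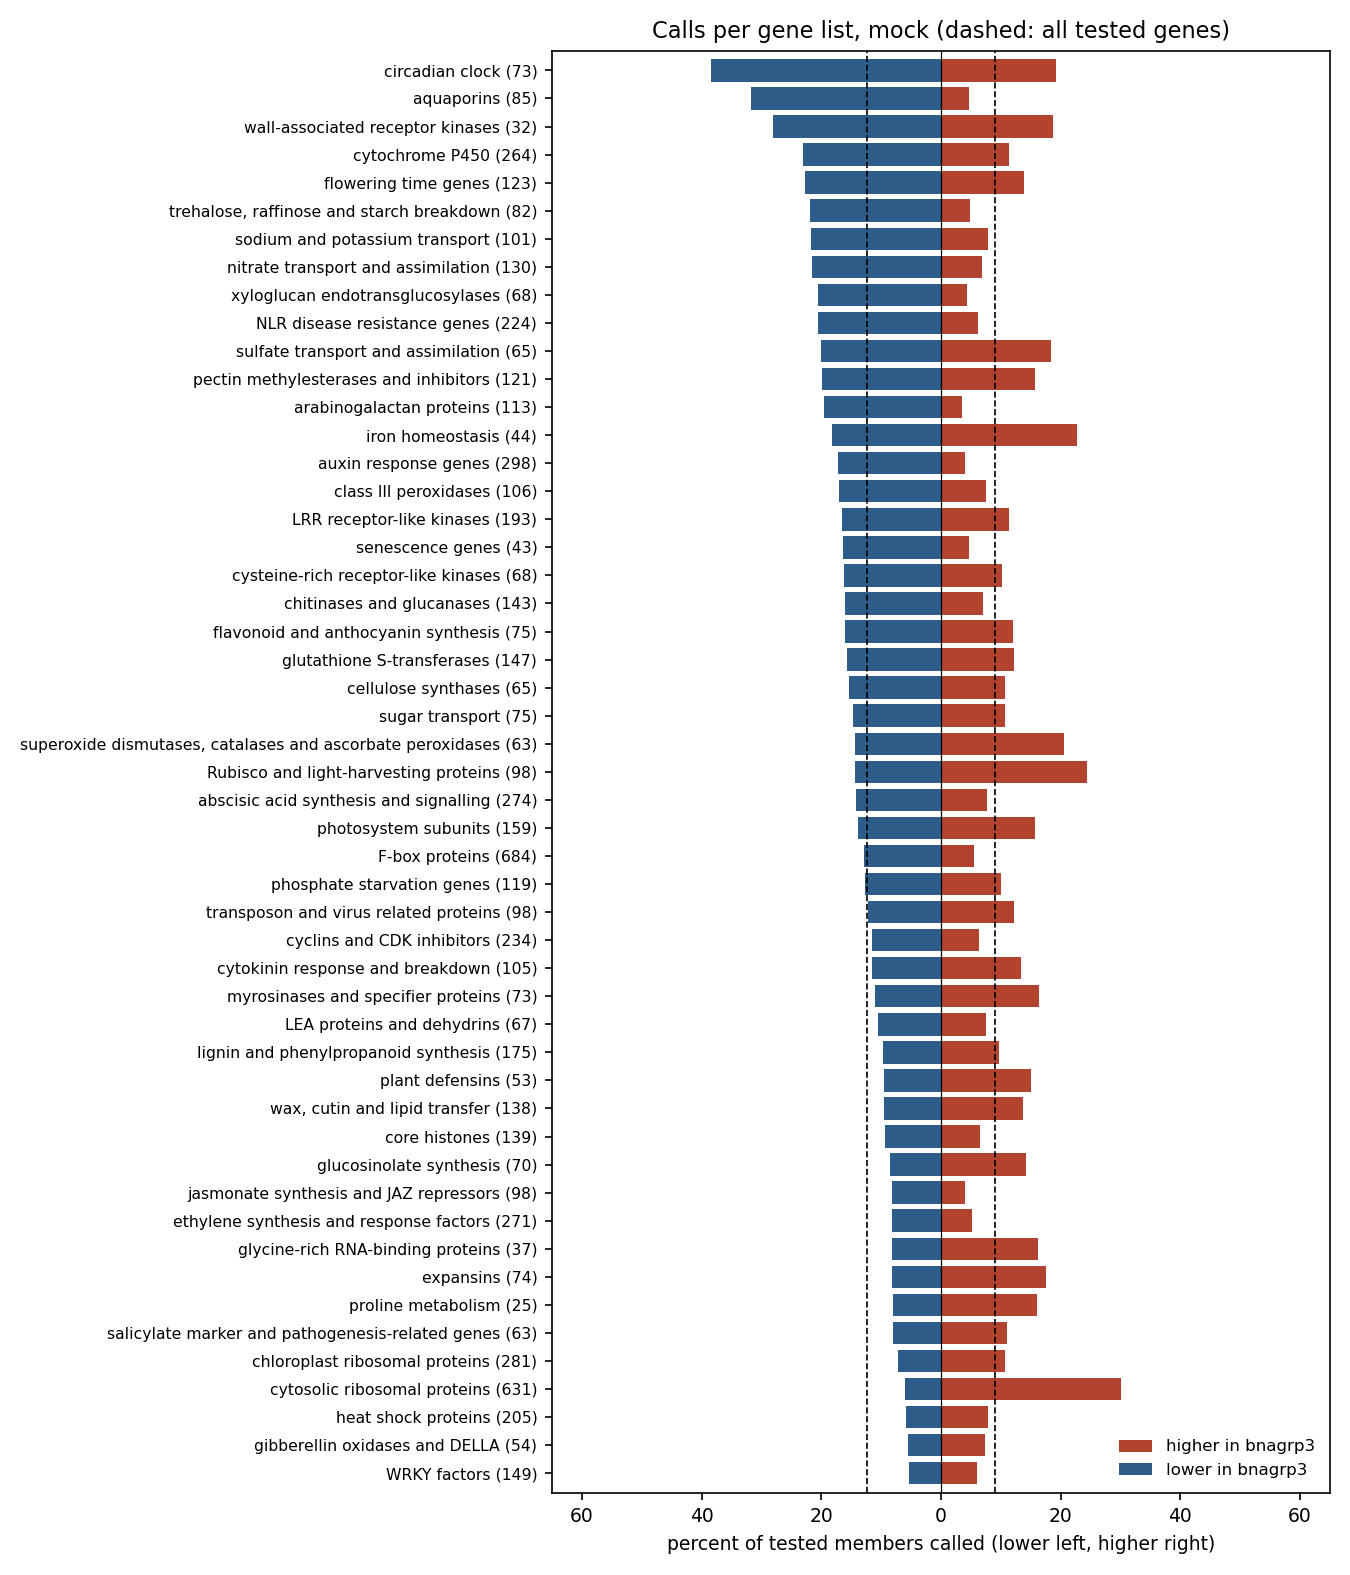
Percent of the tested members of each list of at least 20 tested genes that were called higher (red, to the right) or lower (blue, to the left) in bnagrp3 mock than in WT mock, with the number tested in brackets, sorted by the lower share. Dashed lines mark all tested genes, at 9.1% higher and 12.4% lower, and the clock, aquaporins and cytosolic ribosomal proteins stand furthest from them.

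Wall-associated receptor kinases, the family of the GRP3 partner in Arabidopsis, changed in both directions: 6 of 32 tested genes were higher and 9 lower (46.9% called), with a median log2 difference of -0.03. Summed over copies, WAK5 fell to 6.69, 6.91 and 6.82 TPM in bnagrp3, against 21.5, 24.9 and 23.9 TPM in WT (log2 difference -1.65, limma adjusted p = 0.000116), and 5 of its 6 tested copies were lower. An unplaced WAK2 gene was listed at 0 in bnagrp3 and at 4.55, 6.71 and 11.6 TPM in WT. WAK1 itself was weak. The one WAK1 gene detected in mock, BnaC08G0265100ZS, named here for its tie to GRP3 after its values were seen, had 2.95, 2.74 and 3.6 TPM in bnagrp3 and 1.21, 0.64 and 0.74 TPM in WT (log2 difference 1.14, limma adjusted p = 0.00835). That call was lost with a pseudocount of 0.1 (limma adjusted p = 0.165). WAKL20 and WAKL5 had a higher gene each: BnaC09G0620100ZS was at 20.5, 20.1 and 23.5 TPM in bnagrp3 and 7.23, 10.8 and 8.64 TPM in WT, and BnaC08G0480100ZS at 30.7, 32.7 and 32.7 TPM in bnagrp3 and 11.6, 15.1 and 15.8 TPM in WT. The A10 copy of WAKL20, BnaA10G0299400ZS, lies in the lower stretch and had 0.85, 0.58 and 0.84 TPM in bnagrp3 and 2.02, 5.15 and 4.57 TPM in WT.

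Arabinogalactan proteins, glycoproteins of the outer membrane face and wall, had 22 of 113 tested genes lower and 4 higher. The share called, 23%, was close to the 21.5% of all genes. Of 38 sums over copies 5 were lower and 1 higher, where 12.4% of all sums were lower and 9.41% higher. All arabinogalactan proteins together summed to 2087 to 2374 TPM in bnagrp3 and 2806 to 2993 TPM in WT, without overlap. AGP12 summed to 590, 504 and 709 TPM in bnagrp3 and 1006, 1031 and 1094 TPM in WT (log2 difference -0.81, limma adjusted p = 0.00195). FLA20, a putative fasciclin-like member, summed to 0.15, 0.25 and 0.09 TPM in bnagrp3 and 66.3, 58.3 and 69.3 TPM in WT (log2 difference -5.82). AGP13 was listed at 0 in bnagrp3 and at 37.18, 18 and 25.27 TPM in WT, and the AGP16 gene BnaA05G0015900ZS at 0 in bnagrp3 and at 62.8, 66.4 and 59.6 TPM in WT.

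Of the enzymes that remodel the wall, xyloglucan endotransglucosylases and expansins had shares called near the 21.5% of all genes. Xyloglucan endotransglucosylases, which cut and rejoin xyloglucan, had 14 of 68 genes lower and 3 higher (25% called). The lower count was 9 without WT mock library 1 and also without bnagrp3 mock library 3, and the higher count was 5 without WT mock library 2. XTH6 summed to 139, 163 and 173 TPM in bnagrp3 and 348, 410 and 410 TPM in WT (log2 difference -1.29, limma adjusted p = 0.000162), and XTH8 to 27.3, 32.0 and 27.3 TPM in bnagrp3 and 57.4, 49.98 and 58.2 TPM in WT. Expansins, which loosen the wall without cutting it, had 13 of 74 genes higher and 6 lower (25.7% called), with 8 higher without bnagrp3 mock library 3. EXPA4 summed to 102, 98.8 and 102 TPM in bnagrp3 and 52.6, 66.3 and 67.5 TPM in WT (log2 difference 0.70), and EXPA16 to 16.9, 15.8 and 16.9 TPM in bnagrp3 and 4.72, 7.2 and 4.8 TPM in WT (log2 difference 1.44). EXPA5 went the other way, with 116, 117 and 122 TPM in bnagrp3 and 178, 163 and 205 TPM in WT (log2 difference -0.61).

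Pectin methylesterases and their inhibitors, which set the charge of the pectin that wall-associated kinases bind, had 19 of 121 genes higher and 24 lower (35.5% called). Without WT mock library 3, 12 were higher. PME47 summed to 61.2, 56.9 and 63.8 TPM in bnagrp3 and 16.2, 11.6 and 2.48 TPM in WT (log2 difference 2.76, limma adjusted p = 0.000179). PMEI6, an inhibitor, summed to 78.0, 65.6 and 75.0 TPM in bnagrp3 and 39.2, 39.2 and 46.9 TPM in WT (log2 difference 0.79). Cellulose synthases had 10 of 65 genes lower and 7 higher, a share called of 26.2%, and no sum over copies rose. The higher count was 5 without WT mock library 3 and 3 without any other of the 6.

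Aquaporins, the water channels of the plasma and vacuolar membranes, were called lower more often than higher. Of 85 tested genes 27 were lower and 4 higher (36.5% called), and the lower count stayed between 23 and 28 when any 1 mock library was left out. All aquaporins summed to 4612 to 5104 TPM in bnagrp3 and 5885 to 6474 TPM in WT. The plasma membrane channel PIP2-1 summed to 107, 111 and 150 TPM in bnagrp3 and 274, 275 and 270 TPM in WT, a log2 difference of -1.16 ± 0.10 (limma adjusted p = 3.84e-06), and each of its 3 genes was lower. PIP2-2 summed to 314, 284 and 398 TPM in bnagrp3 and 767, 623 and 650 TPM in WT (log2 difference -1.04, limma adjusted p = 0.000198), and 6 of its 8 tested genes were lower. For both channels bnagrp3 mock library 3 was the highest of its group and still far below every WT library. PIP2-6 rose, with sums of 80.8, 77.8 and 79.3 TPM in bnagrp3 and 53.2, 60.1 and 63.1 TPM in WT (log2 difference 0.43). Of the vacuolar channel TIP2-1, BnaA01G0342600ZS was at 0.14, 0 and 0 TPM in bnagrp3 and 45.6, 38.3 and 50.6 TPM in WT, within a sum of 579, 542 and 544 TPM in bnagrp3 and 819, 639 and 661 TPM in WT. That sum was called lower (log2 difference -0.34, limma adjusted p = 0.0127), and not without WT mock library 1 or in a fit of the 6 mock libraries alone (limma adjusted p = 0.0566 and 0.0787).

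Of 101 tested genes of sodium and potassium transport, 22 were lower, 8 higher and 71 not called (29.7% called). Among all genes 21.5% were called, 12.4% lower and 9.1% higher. The higher count was 2, 3 and 2 without WT mock libraries 1, 2 and 3, and 1, 1 and 4 without bnagrp3 mock libraries 1, 2 and 3. CHX1, a cation/proton antiporter, summed to 1.53, 1.04 and 1.32 TPM in bnagrp3 and 27.9, 19.6 and 23.4 TPM in WT (log2 difference -3.42, limma adjusted p = 0.00016). AKT2, a potassium channel of the phloem, summed to 8.48, 8.46 and 10.52 TPM in bnagrp3 and 15.6, 18.4 and 17.9 TPM in WT (log2 difference -0.85). NHX7, known in Arabidopsis as the plasma membrane sodium exporter SOS1, was slightly higher before any salt was given, at 39.5, 36.1 and 34.7 TPM in bnagrp3 and 29.2, 32.1 and 31.3 TPM in WT (log2 difference 0.25, limma adjusted p = 0.0156). The call of NHX7 was lost without WT mock library 1 and without bnagrp3 mock library 1 (limma adjusted p = 0.0662 and 0.0682), and in a fit of the 6 mock libraries alone (0.0741).

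Rubisco and light-harvesting genes made up a large share of the transcripts of both genotypes, with a summed level of 168879 to 173264 TPM in bnagrp3 and 151002 to 166992 TPM in WT. Of 98 tested, 24 were higher and 14 lower (38.8% called). LHCB4.1, the CP29 antenna protein of photosystem II, had 1 copy lower and another higher. BnaC02G0001800ZS had 1.79, 1.28 and 0.45 TPM in bnagrp3 and 214, 167 and 453 TPM in WT. BnaA02G0004400ZS, the larger source in both genotypes, had 1796, 1674 and 1615 TPM in bnagrp3 and 1139, 1070 and 901 TPM in WT. The sum over LHCB4.1 copies rose to 1799, 1676 and 1616 TPM in bnagrp3, against 1353, 1238 and 1355 TPM in WT (log2 difference 0.37, limma adjusted p = 0.00194). Rubisco activase (RCA), which keeps Rubisco active in the light, summed to 6513, 6575 and 7553 TPM in bnagrp3 and 8497, 9402 and 9537 TPM in WT (log2 difference -0.41, limma adjusted p = 0.00397). That call was lost after quantile normalisation (limma adjusted p = 0.0785).

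Photosystem subunits had 25 of 159 genes higher and 22 lower (29.6% called). PSAK, a subunit of photosystem I, lost BnaA08G0204300ZS, with 25.9, 20 and 20.2 TPM in bnagrp3 and 770, 692 and 771 TPM in WT. Its sum was 2421, 2171 and 2246 TPM in bnagrp3 and 3237, 3253 and 3331 TPM in WT (log2 difference -0.52, limma adjusted p = 0.000545).

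Among lists of at least 20 tested genes, the circadian clock had the largest share called, at 42 of 73 tested (57.5%), 28 lower and 14 higher. The lower count was 23 to 27 when any 1 mock library was left out. The higher count was 9 without WT mock library 1 and 8 without bnagrp3 mock library 1 or 2. Dawn and evening genes differed in direction. LHY and CCA1, related MYB factors that peak at dawn, were lower in all 5 and both tested genes. The LHY genes BnaA07G0053300ZS and Bnascaffold0415G0000300ZS held the same values in every mock library. They are therefore not separate measurements, and both enter the LHY sum given below. Another LHY gene, BnaC03G0001300ZS, lies in the lower C03 stretch. The 9 tested genes of their relatives RVE1, RVE8 and RVE7 were lower as well, as were all 4 of RVE2 and RVE3. By contrast, 5 of 7 tested genes of PRR5 (listed as APRR5) and 2 of 4 of TOC1 (listed as APRR1), repressors that act later in the day, were higher and none was lower.

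Sums over copies showed how large these differences were. LHY was at 6.3, 5.51 and 13.2 TPM in bnagrp3 and 41.4, 46.5 and 45.7 TPM in WT, a log2 difference of -2.38 ± 0.24 (limma adjusted p = 1.25e-05). CCA1 was at 15.9, 16.0 and 22.3 TPM in bnagrp3 and 45.4, 47.9 and 48.9 TPM in WT (log2 difference -1.36, limma adjusted p = 2.93e-05). In both, bnagrp3 mock library 3 was the highest of its group and no library overlapped with WT. RVE8 was at 3.36, 4.18 and 7.17 TPM in bnagrp3 and 18.8, 16.8 and 17.4 TPM in WT (log2 difference -1.71). RVE1 was at 3.09, 3.29 and 5.11 TPM in bnagrp3 and 14.5, 15.5 and 15.6 TPM in WT (log2 difference -1.77). RVE7, RVE4, RVE3, RVE2 and RVE5 were also lower, by 0.99, 0.71, 1.13, 0.65 and 0.52 log2 units, and RVE6 was not called. The RVE4 sum includes BnaC03G0011800ZS of the lower C03 stretch, which averaged 0.98 TPM in bnagrp3 and 9.0 TPM in WT.

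Evening genes rose by less. PRR5 summed to 80.8, 80.6 and 69.0 TPM in bnagrp3 and 49.5, 56.8 and 51.6 TPM in WT (log2 difference 0.54, limma adjusted p = 0.00131). GIGANTEA (GI), which links the clock to flowering, summed to 34.4, 34.7 and 31.3 TPM in bnagrp3 and 24.8, 25.2 and 25.3 TPM in WT (log2 difference 0.40, limma adjusted p = 0.0015). TOC1 and ELF4 had log2 differences of 0.54 and 0.74, with limma adjusted p-values of 0.0228 and 0.00772. The call of TOC1 was lost without bnagrp3 mock library 1 or 2 and without WT mock library 1 or 3 (limma adjusted p = 0.0975, 0.0673, 0.0906 and 0.0545). In a fit of the 6 mock libraries alone, TOC1, ELF4 and RVE5 lost their calls (limma adjusted p = 0.0586, 0.0661 and 0.0812). PRR7, PRR9, PRR3, ELF3 and LUX were not called, with log2 differences of 0.05, 0.34, 0.22, 0.13 and 0.59. The labels do not give the time of day at which either genotype was sampled, so sampling time and genotype cannot be told apart for this list.

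**Figure D5:**
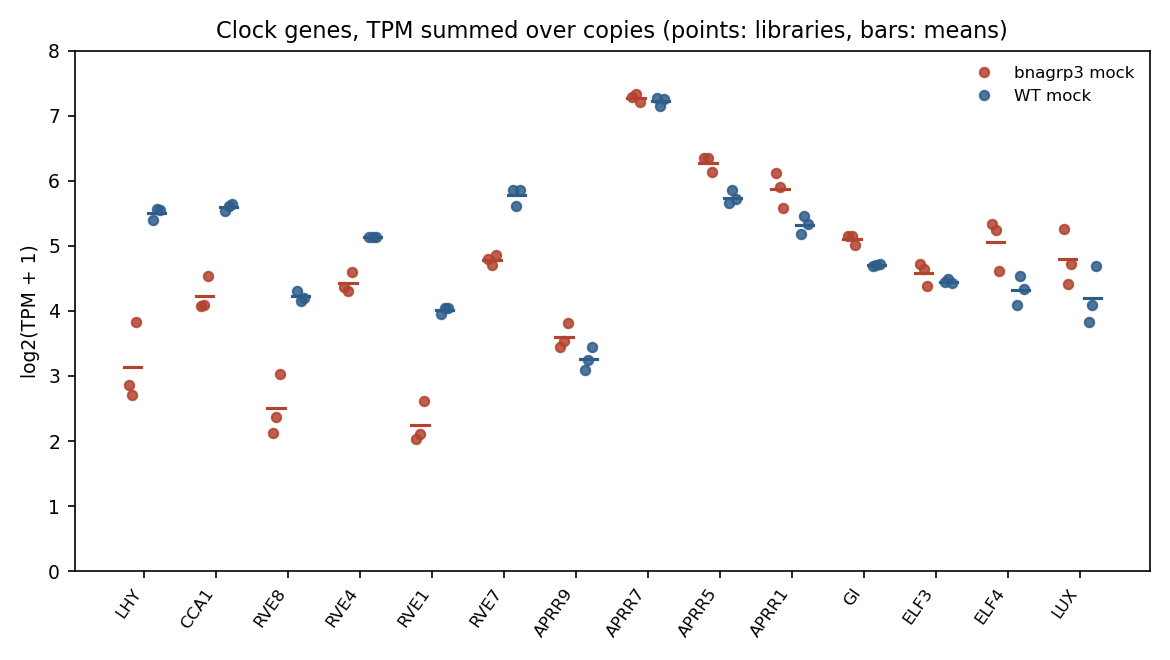
TPM of clock genes summed over copies, as log2(TPM + 1), with 1 point per library and a bar at the mean of 3 libraries, for bnagrp3 mock (left of each pair) and WT mock (right). The dawn genes LHY, CCA1 and RVE8 lie well lower in bnagrp3, and APRR5, APRR1, GI and ELF4 slightly higher.

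Glycine-rich RNA-binding proteins are intracellular and share only the glycine-rich stretch with GRP3. Of 37 tested genes 6 were higher and 3 lower, a share of 24.3%. The gene matched to GRP2A of Sinapis alba summed to 798, 756 and 640 TPM in bnagrp3 and 282, 353 and 320 TPM in WT, a log2 difference of 1.197 ± 0.10 (limma adjusted p = 3.13e-06). Its close relative GRP1A summed to 2059, 1935 and 1677 TPM in bnagrp3 and 1145, 1556 and 1436 TPM in WT (log2 difference 0.46, limma adjusted p = 0.00832), a call lost in a fit of the 6 mock libraries alone (limma adjusted p = 0.0723). In Arabidopsis and Sinapis such proteins are under clock control and peak in the evening. RZ1C, a splicing factor, followed the C03 stretch: BnaC03G0018300ZS was listed at 0 in bnagrp3 and at 6.02, 6.52 and 5.48 TPM in WT, and BnaA03G0014200ZS had 26.6, 26.0 and 25.5 TPM in bnagrp3 and 14.9, 17.0 and 15.6 TPM in WT.

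Flowering time genes changed in both directions. Of 123 tested, 28 were lower and 17 higher (36.6% called). Without bnagrp3 mock library 2, 17 were lower, and the higher count was 11 without WT mock library 1 and 10 without bnagrp3 mock library 1. COL1, a relative of CONSTANS that is expressed around dawn in Arabidopsis, summed to 8.59, 11.5 and 15.4 TPM in bnagrp3 and 36.9, 28.6 and 32.8 TPM in WT (log2 difference -1.42, limma adjusted p = 2.54e-05). COL2 and COL5 were lower by 0.91 and 0.89 log2 units. COL10 rose to 42.9, 39.9 and 29.3 TPM in bnagrp3, against 17.5, 22.7 and 22.6 TPM in WT (log2 difference 0.80). SOC1, an activator of flowering that FLC represses, rose to 37.2, 34.4 and 28.4 TPM in bnagrp3, against 24.9, 21.6 and 24.9 TPM in WT (log2 difference 0.47, limma adjusted p = 0.00479), while summed FLC was not called.

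Cytosolic ribosomal proteins were the list with the most rises. Of 631 tested genes 190 were higher and 38 lower (36.1% called), with a median log2 difference of 0.38, and 81 of 155 sums over copies rose and 1 fell. Together these genes gave 34521 to 41025 TPM in bnagrp3 and 22754 to 32618 TPM in WT. The count of rises depends on single libraries: it was 96 without WT mock library 1, 118 without bnagrp3 mock library 2 and 92 without bnagrp3 mock library 3. The sums that rose were then 42, 46 and 40. RPL19C rose to 50.04, 49.6 and 59.5 TPM in bnagrp3, against 17.5, 24.5 and 19.4 TPM in WT (log2 difference 1.34, limma adjusted p = 0.00607). RPL34C rose to 65.7, 99.0 and 95.3 TPM in bnagrp3, against 31.7, 41.0 and 28.1 TPM in WT (log2 difference 1.34). The sum that fell was RPS3C, with 12.7, 9.73 and 9.66 TPM in bnagrp3 and 18.2, 18.7 and 19.1 TPM in WT (log2 difference -0.76). Chloroplast ribosomal proteins had 30 of 281 genes higher and 20 lower, or 17.8%. Their higher count was 18 without WT mock library 1, 16 without bnagrp3 mock library 2 and 18 without bnagrp3 mock library 3, and their lower count 12 without WT mock library 2 and 13 without bnagrp3 mock library 1.

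Of the 298 tested auxin response genes, which follow the growth hormone auxin, 51 were lower and 12 higher (21.1% called, against 21.5% of all genes), with a median log2 difference of -0.17. The lower count was 32 without WT mock library 1, 33 without WT mock library 3 and 33 without bnagrp3 mock library 2. IAA14, a repressor of auxin signalling, summed to 3.2, 7.04 and 4.95 TPM in bnagrp3 and 13.7, 10.8 and 13.6 TPM in WT (log2 difference -1.22, limma adjusted p = 0.00319). GH3.6, which conjugates auxin to amino acids, summed to 3.29, 4.33 and 4.35 TPM in bnagrp3 and 10.4, 10.8 and 8.63 TPM in WT (log2 difference -1.13). SAUR24, of a family tied to cell expansion, summed to 5.78, 6.76 and 9.34 TPM in bnagrp3 and 20.2, 15.3 and 21.6 TPM in WT (log2 difference -1.28). Cyclins and their inhibitors were called at 17.9%, below the background, with 27 of 234 lower and 15 higher, and 9 and 8 higher without bnagrp3 mock libraries 1 and 2. CYCD7-1, a putative cyclin, summed to 19.7, 17.9 and 19.9 TPM in bnagrp3 and 45.3, 49.1 and 49.7 TPM in WT (log2 difference -1.28). Its copy BnaC03G0008500ZS lies in the lower C03 stretch (log2 difference -1.44), and its A03 copy BnaA03G0005400ZS was lower as well (-1.07). In all, 4 of the 27 lower genes of this list lie in the stretches.

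Genes of salt and drought responses were also compared before salt was given. Abscisic acid synthesis and signalling had 39 of 274 genes lower and 21 higher (21.9% called, against 21.5% of all genes), with 12 higher without WT mock library 3 and 11 without bnagrp3 mock library 2. LEA proteins and dehydrins, which protect drying cells, had 7 of 67 lower and 5 higher (17.9% called), with 3 higher without WT mock library 2, bnagrp3 mock library 2 or bnagrp3 mock library 3. RAB18, a dehydrin induced by abscisic acid, summed to 70.9, 70.9 and 63.3 TPM in bnagrp3 and 48.2, 38.2 and 42.6 TPM in WT (log2 difference 0.66, limma adjusted p = 0.00427), and this call was lost after quantile normalisation (limma adjusted p = 0.0598). The ERD10 gene BnaC07G0195200ZS went down to 23.6, 34.4 and 28.0 TPM in bnagrp3, against 63.1, 63.6 and 68.9 TPM in WT (log2 difference -1.17). P5CSB, which makes proline, summed to 34.0, 35.6 and 35.8 TPM in bnagrp3 and 24.1, 27.9 and 24.1 TPM in WT (log2 difference 0.46, limma adjusted p = 0.000883).

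Enzymes that remove superoxide and peroxide changed in both directions. Of 63 tested genes 13 were higher and 9 lower (34.9% called), with 8 higher without WT mock library 1 and 6 without bnagrp3 mock library 3. Catalase 2 (CAT2), the peroxisomal enzyme of photorespiration, summed to 225, 210 and 295 TPM in bnagrp3 and 477, 450 and 486 TPM in WT, a log2 difference of -0.96 ± 0.10 (limma adjusted p = 1.25e-05). CSD3, a copper-zinc superoxide dismutase, summed to 30.8, 34.0 and 28.8 TPM in bnagrp3 and 51.1, 49.3 and 54.0 TPM in WT (log2 difference -0.71). FSD2, an iron superoxide dismutase of chloroplasts, rose to 25.2, 29.9 and 31.9 TPM in bnagrp3, against 13.1, 19.0 and 17.3 TPM in WT (log2 difference 0.79, limma adjusted p = 0.00209). CSD2, the copper-zinc enzyme of chloroplasts, was at 135, 165 and 180 TPM in bnagrp3 and 84.0, 61.5 and 76.2 TPM in WT (log2 difference 1.11, limma adjusted p = 0.0357). Its call was lost without any library but bnagrp3 mock library 1, with limma adjusted p-values of 0.0584, 0.0963 and 0.0732 without WT mock libraries 1, 2 and 3 and of 0.0909 and 0.107 without bnagrp3 mock libraries 2 and 3.

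Defence genes did not move as a block. NLR disease resistance genes, the intracellular immune receptors, had 46 of 224 tested genes lower and 14 higher (26.8% called). Among all genes 21.5% were called, 12.4% lower and 9.1% higher. The lower NLR count stayed between 36 and 45 without any 1 library. The putative resistance gene At1g63350 summed to 8.51, 8.6 and 8.79 TPM in bnagrp3 and 28.6, 23.2 and 26.1 TPM in WT (log2 difference -1.48, limma adjusted p = 0.000941). RPP8L2 rose, with sums of 139, 129 and 120 TPM in bnagrp3 and 87.6, 94.5 and 75.7 TPM in WT (log2 difference 0.59). WRKY factors were called at 11.4%, with 9 of 149 higher and 8 lower. Their higher count was 4 without WT mock library 1, 3 without WT mock library 3, and 5, 3 and 4 without bnagrp3 mock libraries 1, 2 and 3. Jasmonate synthesis and JAZ repressors were called at 12.2%, with 4 of 98 higher and 8 lower. Without WT mock library 1, bnagrp3 mock library 2 or bnagrp3 mock library 3, 5 of these were lower, and without WT mock library 2, 2 were higher. PR1, the marker of salicylate signalling, summed to 24.4, 24.9 and 14.5 TPM in bnagrp3 and 34.0, 50.8 and 45.3 TPM in WT (log2 difference -1.02, limma adjusted p = 0.00917). PAD4, which acts in that pathway, had a higher gene, BnaA03G0425400ZS, with 8.99, 8.3 and 8.66 TPM in bnagrp3 and 3.88, 4.73 and 4.51 TPM in WT. Defensin-like protein 206 (At3g59930) summed to 98.0, 69.1 and 126 TPM in bnagrp3 and 15.4, 31.0 and 11.6 TPM in WT (log2 difference 2.35, limma adjusted p = 0.000689). AFP4, another defensin, summed to 270, 261 and 247 TPM in bnagrp3 and 433, 399 and 425 TPM in WT (log2 difference -0.69).

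Sulfate assimilation changed in both directions (12 of 65 genes higher, 13 lower, 38.5% called), with 8 lower without WT mock library 2 or 3. The reductases that commit sulfate to cysteine rose: APR1 summed to 12.6, 11.9 and 13.1 TPM in bnagrp3 and 5.45, 5.65 and 5.34 TPM in WT (log2 difference 1.06, limma adjusted p = 3.88e-05), and APR3 to 54.2, 54.0 and 61.7 TPM in bnagrp3 and 32.1, 27.8 and 30.02 TPM in WT (log2 difference 0.90). A gene of their relative APR2, BnaA03G0586600ZS, fell to 1.7, 1.71 and 1.97 TPM in bnagrp3, against 21.1, 20.4 and 29.8 TPM in WT. The transporter SULTR2;1 was lower, at 5.56, 4.46 and 4.45 TPM in bnagrp3 and 8.84, 11.8 and 9.9 TPM in WT (log2 difference -0.94). Nitrate transport and assimilation had 28 of 130 genes lower and 9 higher (28.5% called), with 5 higher without WT mock library 1 or bnagrp3 mock library 2. Among all genes 21.5% were called, 12.4% lower and 9.1% higher. NPF6.4, a nitrate transporter, summed to 30.01, 31.8 and 35.2 TPM in bnagrp3 and 64.7, 54.3 and 62.6 TPM in WT (log2 difference -0.88, limma adjusted p = 0.000142). NPF7.3, which loads nitrate into the xylem in Arabidopsis, summed to 3.0, 2.85 and 3.41 TPM in bnagrp3 and 8.93, 9.13 and 9.81 TPM in WT (log2 difference -1.33).

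Iron genes had 10 of 44 higher and 8 lower (40.9% called). Of the 44, 5 lie in the lower stretches, and these hold 3 of the 8 lower genes. FRO7, the ferric reductase of chloroplasts, fell to 67.1, 58.4 and 73.0 TPM in bnagrp3, against 161, 149 and 161 TPM in WT (log2 difference -1.24, limma adjusted p = 2.42e-05). The list also holds metallothioneins, which bind metals. The type 2 entry of the lost C02 gene summed to 193, 216 and 237 TPM in bnagrp3 and 412, 458 and 540 TPM in WT (log2 difference -1.12). Another metallothionein entry, MT23_BRAJU, was called higher as a sum. That call was lost without WT mock library 3 (log2 difference 0.46, limma adjusted p = 0.0642) and without bnagrp3 mock library 2 (0.51, limma adjusted p = 0.0513).

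Cytochrome P450 genes were often lower (61 of 264 lower and 30 higher, 34.5% called), with 18 and 17 higher without bnagrp3 mock libraries 1 and 2. CYP89A2, of a subfamily that acts on chlorophyll breakdown products in Arabidopsis, summed to 5.05, 5.16 and 6.05 TPM in bnagrp3 and 38.7, 35.0 and 38.6 TPM in WT, a log2 difference of -2.58 ± 0.08 (limma adjusted p = 5.93e-12). CYP86A2, a fatty acid hydroxylase of cutin synthesis, summed to 28.1, 34.0 and 31.8 TPM in bnagrp3 and 64.8, 70.5 and 79.7 TPM in WT (log2 difference -1.17). Genes of wax, cutin and lipid transfer were called at 23.2%, with 19 of 138 higher and 13 lower. The lipid-transfer protein LTP4 rose to 277, 306 and 298 TPM in bnagrp3, against 119, 98.3 and 133 TPM in WT (log2 difference 1.33, limma adjusted p = 1.69e-06). LTP6 fell to 191, 188 and 224 TPM in bnagrp3, against 377, 451 and 524 TPM in WT (log2 difference -1.15).

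Much of the mock difference was present in salt too. Of the 12465 genes called in mock, 10342 had the same sign at both NaCl times, 5908 were called the same way at both, and 178 were called the other way at either time. Without salt 21.5% of genes were called, with NaCl 23.6% at 4 h and 23.4% at 8 h. These comparisons share no library, but all 18 entered the same fit. A direct test of the mock difference against the mean of both NaCl differences called 1725 genes (2.98%), 839 with a higher and 886 with a lower value in mock, and 1152 of them were also called in mock. That count was 959 without WT mock library 1, 911 without bnagrp3 mock library 2 and 1061 without bnagrp3 mock library 3.

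Several of the named differences were seen in mock and were close to 0 in salt. The log2 difference of PIP2-1 was -1.16 in mock, -0.26 at 4 h and 0.01 at 8 h (limma interaction, adjusted p = 0.000423). For CAT2 these were -0.96, -0.17 and -0.07 (limma interaction, adjusted p = 0.00124), and for LTP4 1.33, -0.12 and -0.25 (adjusted p = 1.02e-05). APR1 had 1.06, 0.10 and -0.28, and RVE1 -1.77, 0.03 and -0.25. CCA1 remained lower in salt, at -1.36 in mock, -0.76 at 4 h and -0.64 at 8 h. The A04 copy of CURT1B was as low in salt, with log2 differences of -7.30 in mock, -6.84 at 4 h and -6.89 at 8 h.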

How the data were processed

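Poly(A) RNA of 18 Brassica napus samples was sequenced, 3 per group. Reads went through fastp, HISAT2 and featureCounts, per the submitters' processing notes, which state no version. Build, annotation and strand were not given in the sources used here. The authors deposited a single TPM table, so named per the file headers, with Swiss-Prot and other annotation. TPM keeps no read count, so depth is unknown and precision was judged from the spread between libraries. No value column lacked a sample. Of 108207 genes, 57923 with at least 1 TPM in at least 3 of 18 libraries were kept. limma 3.58.1 (R 4.3.3) was fitted to log2(TPM + 1) of all 18 libraries, as deposited, with 1 mean per group, moderated t-tests with an intensity trend and Benjamini-Hochberg adjustment, two-sided. The same fit was run on TPM summed over genes with the same Swiss-Prot entry, a step chosen after seeing the data, as were the search for stretches of lower genes and the removal from lists of products that share only a symbol. The procedure was also run on simulated data with independent noise for each gene. Those data hold no effect shared by the genes of a library, so they say nothing of such effects here.

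Gene lists (53) and cell type markers (12 lists) were matched by product name or symbol. The members, lists and alternatives were chosen with earlier results of these data known. Named were every GRP3 gene, the 15 largest rises and 15 largest falls with a named product and a mean of at least 10 TPM, and per list up to 3 rises and 3 falls that were called, did not overlap between genotypes and reached 5 TPM; the same rule was used for sums, and every clock entry was named. Partner copies, WAK1 and the sums of FLC, CURT1B, LHCB4.1, CER1, GLP1, MCD1 and TIP2-1 were chosen after their values were seen. Libraries with the same replicate number shared little deviation, so no block was used. Alternatives were quantile normalisation and median-of-ratios rescaling, a pseudocount of 0.1, a 5 TPM filter or none, a replicate block, only the 6 mock libraries, a further threshold of 1 log2 unit, lists by product name only, and leaving out each mock library.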

Additional observations from a re-analysis of the deposited data

Results flagged for a closer look

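The difference between bnagrp3 and WT itself differed between mock and NaCl for 41 of the named genes and sums, by the limma interaction of the mock difference minus the mean of both NaCl differences (Benjamini-Hochberg adjusted p under 0.05). The values below are that interaction on the log2 scale, and a negative value means that bnagrp3 stood lower against WT in mock than in salt. Among cell wall genes it was -1.36 for XTH6, -1.62 for PME47, 0.55 for PMEI6 and -1.80 for the unplaced WAK2 gene, and it was -2.56 for the GRP3 gene Bnascaffold0025G0035900ZS. Among aquaporins it was -1.03 for PIP2-1, -1.10 for PIP2-2, 0.39 for PIP2-6, -0.58 for summed TIP2-1 and -1.0 for its C01 gene. In the clock and flowering lists it was -0.66 for CCA1, -1.65 for RVE1, -1.10 for RVE3, -0.55 for RVE4, -0.48 for RVE7, 0.31 for GI, 0.45 for the GRP2A entry, -1.07 for COL1 and -1.10 for COL2.

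Stress and nutrient genes with such a difference were RAB18 at 1.25, the ERD10 gene BnaC07G0195200ZS at -0.83, ALDH12A1 (proline breakdown) at 0.39, AKT2 at -0.61, CAT2 at -0.85, APR1 at 1.15, APR3 at 1.14, NPF6.4 at -1.06 and summed NAS1 at -0.51. RPS3C stood at -0.60, the defensin sums At3g59930 at 1.74 and AFP4 at -0.77, LTP4 at 1.52 and CYP89A2 at -1.50. Single copies that were nearly lost or gained were MCD1 at -0.85, the unplaced ECS1 model at -2.82, PSAK on A08 at -2.12, KCS1 on A09 at -1.0, NAS1 on C03 at -1.42, the unplaced defensin gene at 1.02, and BBD1 at 2.26 for its gene and 2.36 for its sum. A copy at or near 0 TPM in either genotype cannot fall further there. Its interaction can then follow the salt response of the other genotype alone, and this also holds for the unplaced WAK2 gene.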

How the results depend on the processing

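No named gene or sum changed direction with a call under any alternative tried: of 2046 values of 172 tested genes and sums, 1994 stayed on the same side of the threshold, 41 lost and 11 gained a call, in 28 genes and sums. Of 12465 genes called, 4103 also differed by 1 log2 unit, and 3025 entries were called as sums over copies. Libraries with the same replicate number shared little deviation, with correlations of 0.033, 0.035 and 0.012, against -0.037 to 0.003 for other numbers. With the replicate block 12118 genes were called, 1608 for the interaction, 1732 list members, 301 named genes and 2995 sums. A stricter run of at least 20 of 30 genes gave 5 stretches in place of 3, on the same 3 chromosomes.

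Without 1 mock library, the genes called ranged from 9207 to 11366, the interaction from 911 to 2042, list members from 1332 to 1678, named genes from 264 to 278, GRP3 genes from 6 to 7 and sums from 2110 to 3063. Genes present in WT alone ranged from 254 to 272 and in bnagrp3 alone from 17 to 37, since fewer libraries had to meet the rule. The median-of-ratios and quantile scalings moved the share of calls that were higher to 47.2% and 48.5%, from 42.3%. TPM sets no depth, so weak genes are the least certain, and the 3 libraries of a group limit every test.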
